A study of Mus musculus with 29 samples.

Results

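The genistein effect on the mouse uterus was compared between gestation days GD5.5 and GD4.5, using the 16 arrays of these days out of the 29 in the series. Arrays were chosen by the day and exposure in their titles. Uterine RNA came from CD-1 mice, an outbred stock, which as pups had received genistein (GEN), an isoflavone phytoestrogen of soy, from postnatal day 1 to day 5 at a daily dose of 50 mg/kg, or corn oil alone (CON) on the same days, and which were later pregnant. The 4 groups were GD5.5 GEN, GD5.5 CON, GD4.5 GEN and GD4.5 CON, with 4 samples each. Whether the 4 samples of a group are separate animals is not stated in the labels, and p-values therefore cover only the spread between samples, which may be technical.

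In mice the embryo attaches to the uterine epithelium around GD4.5, and by GD5.5 the stroma under it turns into decidua, a tissue of enlarged and often polyploid cells. This step needs progesterone, a pulse of estrogen and products of the uterine glands. Stromal BMP2 and WNT4 drive decidualization, decidual cells secrete hormones of the prolactin family, and the epithelium around the embryo is lost.

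The quantity described is the difference of differences, GEN minus CON at GD5.5 less GEN minus CON at GD4.5. It equals the change over the day in GEN uteri (GD5.5 minus GD4.5, "GEN change") less that in CON uteri ("CON change"). A gene is called blunted here when the difference and the CON change passed the test and the GEN change was smaller, in the same direction. It is called reversed when the difference and the CON change passed and the GEN change had the opposite sign. All levels are log2 intensities relative to the 75th percentile of their own array, so a difference of 1 is 2-fold.

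All 16 arrays were scanned together and lay on slides 5 to 8. Every slide held CON arrays of both days. Slide 5 held GD4.5 GEN arrays but no GD5.5 GEN array, and slide 7 held GD5.5 GEN arrays but no GD4.5 GEN array. On these slides the GEN change cannot be told apart from a difference between slides. Of their spots 65.5 to 80.9% were well above background, and arrays of a group correlated at r = 0.957 to 0.983. The uterine transcription factors Hoxa10 and Hoxa11, the receptors Pgr and Esr1, the muscle genes Myh11 and Acta2 and the epithelial genes Krt8 and Cdh1 were above background on 16 of 16 arrays.

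1 gene passed the test for the difference. Banp, which encodes a nuclear matrix-associated transcription factor, fell over the day in GEN uteri and rose in CON uteri, and so was reversed. It was 1 of 22549 genes tested, a background of 0.00443%, and 0 genes passed with a higher difference (limma, Benjamini-Hochberg adjusted p under 0.05). At an unadjusted p under 0.05 there were 1679 genes (7.45%), 1035 with a higher (4.59%) and 644 with a lower difference (2.86%). The median standard error of a difference was 0.33, against 0.23 for the change in either exposure.

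The probes below belong to genes the results turn on. Each is a 60-base probe, of which the first 30 bases, 5′ to 3′, are shown. No base is set off by capitals. Positions, for the whole probe, come from the array files and refer to build NCBI35 (mm7), and whether a probe lies in an exon, intron or untranslated region was not annotated there.
Banp, chr8:120667863-120667922, plus strand: attcagacagacaagaactacgatattttg
Cyp2s1, chr7:22576517-22576576, minus strand: cagaagccatagctgacctctttgtgactt
Anxa8, chr14:31533094-31533153, plus strand: atcctctgatcgtggtctccgagcctgaag
Prl3c1, chr13:26569146-26569205, plus strand: aaaccatttgctaaaagtgcaaagtcctta
Bcl2l12, chr7:41167096-41167155, minus strand: gacttgaacttgcccttggactgaacgttt
Ltf, chr9:110738071-110738130, plus strand: ttgcctgttccagtctaaaaccaaaaacct

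On the GD5.5 arrays, Banp stood at 1.59, 1.52, 1.43 and 1.66 in GEN, and at 1.98, 1.94, 1.84 and 1.93 in CON. On the GD4.5 arrays it stood at 2.52, 2.12, 2.13 and 1.90 in GEN, and at 1.58, 1.43, 1.45 and 1.39 in CON. All GEN arrays lay below all CON arrays at GD5.5 and above all of them at GD4.5, with no overlap on either day. The GEN change was -0.62 (SE 0.11, adjusted p = 0.00087) and the CON change 0.46 (SE 0.11, adjusted p = 0.0032). Their difference was -1.08 (SE 0.16, 95% interval -1.40 to -0.75, adjusted p = 0.0119). GEN minus CON was -0.37 at GD5.5, which did not pass (adjusted p = 0.498), and 0.70 at GD4.5, which did (adjusted p = 0.0102). Banp has a single probe on the array. Slides 6 and 8 each held an array of every group, and within them the difference was -1.10 and -1.0. With slide as a fixed term the value was -1.05 but no longer passed (adjusted p = 0.213), and with only the 16 arrays in the fit, or with scaling to the array's median, it did not pass either (adjusted p = 0.329 and 0.10).

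**Figure D1:**
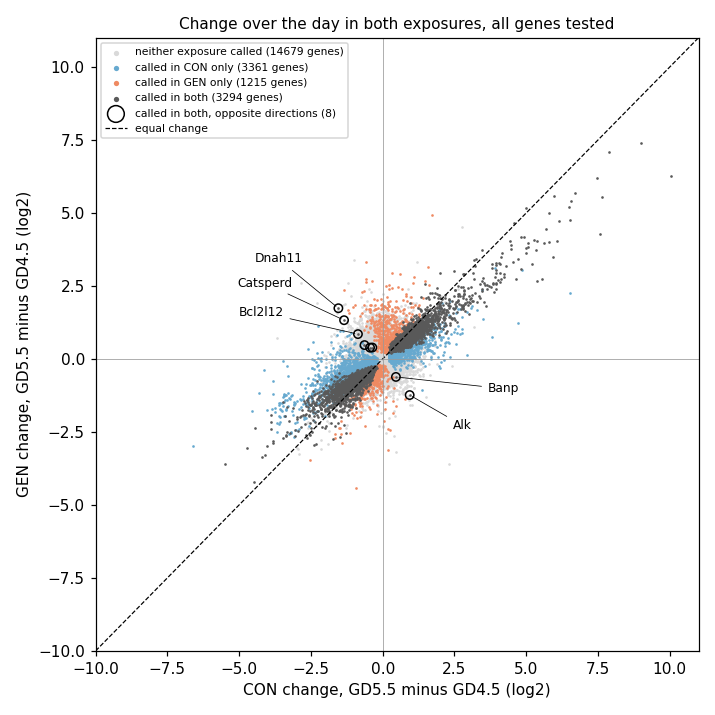
Change over the day in GEN (vertical axis) against CON (horizontal axis) uteri, in log2, for the 22549 genes tested; colours show in which exposure the change passed the test, circles the 8 genes that passed in opposite directions, and the dashed line equal change. Most called genes lie in the quadrants of equal sign, and Banp and Alk fell in GEN and rose in CON.

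Both exposures changed strongly over the day, mostly in the same direction. The GEN change passed for 4509 genes (20% of those tested; 2674, or 11.9%, rose and 1835, or 8.14%, fell) and the CON change for 6656 (29.5%; 3534, or 15.7%, rose and 3122, or 13.8%, fell). Of these, 3286 passed in both in the same direction, which is 72.9% of the GEN list and 49.4% of the CON list; 1916 rose and 1370 fell. The changes in the 2 exposures share no array, and across genes they correlated at r = 0.71 (Spearman's rho 0.60); genes are not independent replicates. The genes passing in only 1 exposure are not thereby shown to differ between exposures, since only Banp passed the test of the difference. The counts depended on the fit, above all in GEN. With slide as a fixed term 1002 genes passed in GEN and 6559 in CON. With only the 16 arrays in the fit the counts were 1453 and 4457, and under normexp background correction they were 13454 and 4492. The overlap is given for the main fit only.

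8 genes passed in both exposures in opposite directions. Alk, a receptor tyrosine kinase, and Banp fell in GEN and rose in CON. Fech (ferrochelatase, the last enzyme of haem synthesis), Bcl2l12 (a BCL2-related protein), Creb3l1 (a transcription factor anchored in the endoplasmic reticulum), Dnah11 (an axonemal dynein of cilia), Arap1 (a GTPase-activating protein) and Catsperd (a subunit of a sperm calcium channel) rose in GEN and fell in CON. Alk was well above background on 5 of 16 arrays, and Dnah11 was above it on no GD5.5 CON or GD4.5 GEN array, so their values lie near the detection limit. With dim arrays of the dimmer day raised to the lowest signal above background, Alk was 1.10-fold lower at GD5.5 in GEN. In CON it was 1.39-fold higher at GD5.5. Only 3 GD4.5 GEN arrays and 2 GD5.5 CON arrays were above background, so these are not firm lower bounds. The differences of Alk (-2.18, SE 0.44, adjusted p = 0.226, but 1.13 under normexp background correction) and of Dnah11 (3.28, SE 0.76, adjusted p = 0.364) did not pass.

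Next to Banp in order of p were Fech and Cyp2s1, neither of which passed. Cyp2s1 encodes a cytochrome P450 of epithelia outside the liver. It stood at 2.74, 2.82, 2.69 and 3.10 in GD5.5 GEN, 3.32, 3.45, 3.11 and 3.25 in GD5.5 CON, 2.03, 1.74, 1.64 and 2.40 in GD4.5 GEN, and 0.96, 1.33, 0.94 and 1.02 in GD4.5 CON. The GEN arrays were below the CON arrays at GD5.5 and above them at GD4.5 without overlap. The GEN change was 0.88 (SE 0.16) and the CON change 2.22 (SE 0.16), both rises that passed, and the difference was -1.34 (SE 0.23, 95% interval -1.82 to -0.86, adjusted p = 0.0573). A second Cyp2s1 probe was above background on 1 of 16 arrays.

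Fech stood at 0.87, 1.07, 0.91 and 0.73 in GD5.5 GEN, against 0.63, 0.66, 0.78 and 0.36 in GD5.5 CON. At GD4.5 it stood at 0.46, 0.39, 0.40 and 0.43 in GEN, against 1.37, 0.90, 1.38 and 1.31 in CON. The groups overlapped slightly at GD5.5 and were apart at GD4.5, where GEN was lower by -0.82 (adjusted p = 0.0119). The difference was 1.11 (SE 0.19, adjusted p = 0.0573), but the second probe of Fech, also above background on 16 of 16 arrays, gave -0.27, so the value rests on the probe used.

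Bcl2l12 stood at 0.98, 0.23, 1.30 and 1.34 in GD5.5 GEN, 0.28, 0.93, 0.87 and 0.32 in GD5.5 CON, 0.22, 0.09, 0.32 and -0.19 in GD4.5 GEN, and 1.46, 1.56, 1.36 and 1.48 in GD4.5 CON. The exposures overlapped at GD5.5 and lay far apart at GD4.5. The GEN change was 0.85, a rise, and the CON change -0.86, a fall, with a difference of 1.71 (SE 0.33, adjusted p = 0.194).

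Anxa8, an annexin that binds phospholipids in the presence of calcium, had the largest difference among the 8 genes of smallest p on the lower side. It stood at 2.31, 2.31, 0.72 and 2.25 in GD5.5 GEN, 3.85, 4.38, 4.42 and 2.37 in GD5.5 CON, 0.95, 0.97, 0.66 and 0.06 in GD4.5 GEN, and -2.20, 0.40, -1.16 and -0.88 in GD4.5 CON. GEN arrays lay below all CON arrays at GD5.5, and at GD4.5 GD4.5 CON 2 was above the lowest GEN array. The GEN change was 1.23 (SE 0.55, adjusted p = 0.111), the CON change, a rise, was 4.72 (SE 0.55, adjusted p = 2.48e-06), and the difference was -3.48 (SE 0.77, 95% interval -5.08 to -1.88, adjusted p = 0.351).

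The other lower genes of smallest p were Klhl42 (a ubiquitin ligase adaptor), Nid2 (nidogen of the basement membrane), Usp25 (a deubiquitinase) and Rgcc (a cell cycle regulator). Nid2, Usp25 and Rgcc rose in CON by 1.24, 0.54 and 1.58, while their GEN changes of 0.15, -0.15 and 0.50 did not pass. Klhl42 fell in GEN by 1.48, with a CON change of 0.07 that did not pass, but its second probe above background on 16 of 16 arrays gave a difference of 0.43 in place of -1.55. On the higher side, Creb3l1 had a difference of 0.83, Pcdhb19 (a protocadherin, not well above background on any GD5.5 CON array) 1.01, Klhl5 (a kelch protein) 0.83, Rfng (a glycosyltransferase that modifies Notch) 0.69 and Mex3d (an RNA-binding protein) 0.53. None of these passed (adjusted p 0.226 to 0.376), and each had the same sign within slides 6 and 8.

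**Figure D2:**
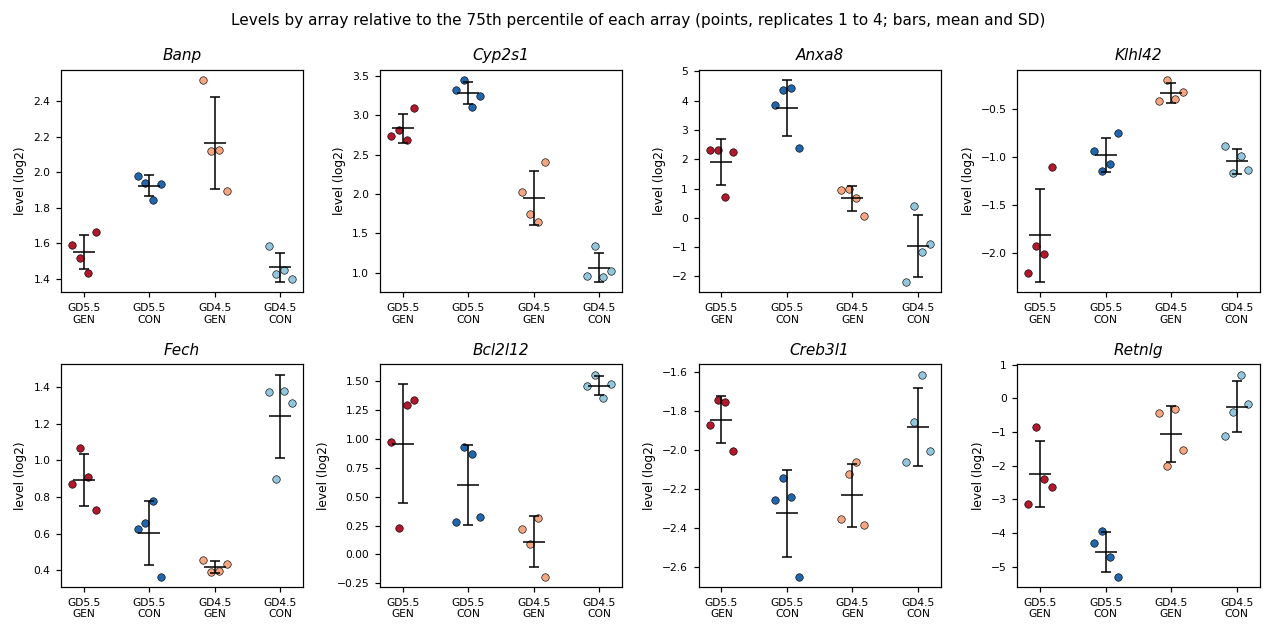
Log2 level by array (points) of Banp, Cyp2s1, Anxa8, Klhl42, Fech, Bcl2l12, Creb3l1 and Retnlg in GD5.5 GEN, GD5.5 CON, GD4.5 GEN and GD4.5 CON uteri, with mean and SD, n = 4 a group. Banp and Cyp2s1 show GEN below CON at GD5.5 and above CON at GD4.5 without overlap.

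GEN minus CON passed for 0 genes at GD5.5 (0%; limma, 1218 genes, or 5.4%, at an unadjusted p under 0.05) and for 22 at GD4.5 (0.0976%; 3, or 0.0133%, higher and 19, or 0.0843%, lower). Among the genes named above, Banp and Cyp2s1 were higher in GEN at GD4.5, and Fech, Bcl2l12 and Klhl5 lower. Each of these comparisons shares its arrays with the difference.

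Some arrays stood apart in how far they had moved, in GEN and in CON. The 200 genes with the largest mean rise over both exposures had array medians of -0.06, -0.50, -1.69 and 0.24 in GD5.5 GEN, against 0.23, 0.33, 0.26 and -0.14 in GD5.5 CON. At GD4.5 the medians were -3.22, -2.25, -3.84 and -3.92 in GEN, against -3.61, -2.99, -3.69 and -3.27 in CON. GD5.5 GEN 3 was thus lowest of its day and GD4.5 GEN 2 highest of its day. For the 200 genes with the largest mean fall, GD4.5 GEN 4 stood at 0.29, above the other GD4.5 arrays (-2.82 to -0.77), and GD5.5 GEN 3 at -2.39, above the other GD5.5 arrays (-4.75 to -3.18). GD4.5 CON 2 stood at -2.82, the lowest of its day, with the other CON arrays of that day at -1.19 to -0.77.

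**Figure D3:**
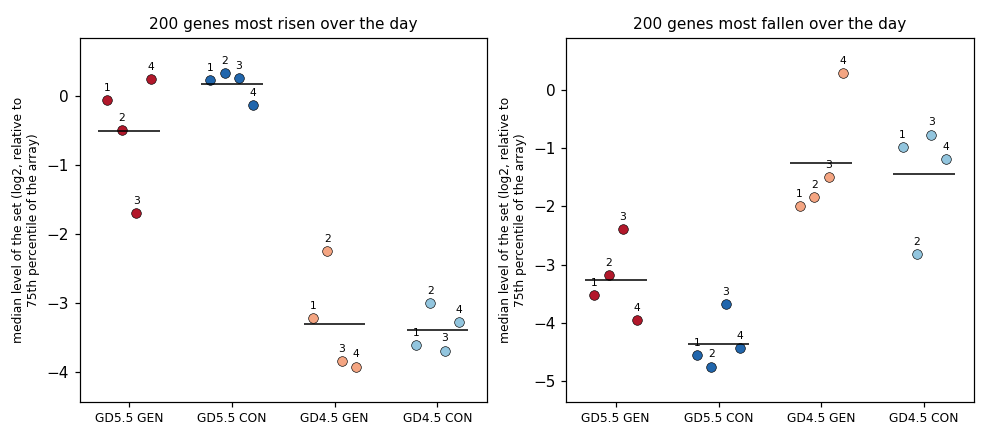
Median log2 level, relative to the 75th percentile of the array, of the 200 genes most risen (left) and the 200 most fallen (right) over the day, for each array (points with replicate number), with the group mean as a line. GD5.5 GEN 3 lies closest to the GD4.5 arrays in both panels.

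Across genes the change in GEN was smaller than in CON on average, but not on every slide. The mean change over both exposures has an estimate uncorrelated with that of the difference, since the groups were of equal size and slide was not fitted. It passed for 8890 genes (39.4%) and was a measure added after the data were seen. Among the 4861 that rose (21.6%), 65.8% had moved less far in GEN (median GEN change 0.47, CON change 0.53), and among the 4029 that fell (17.9%), 71.0% had (-0.59 and -0.77). Leaving out any 1 array gave 50.5 to 78.5% and 58.8 to 79.0%, with the lowest share of risen genes without GD4.5 GEN 2 and the lowest share of fallen genes without GD5.5 GEN 3. Without GD4.5 CON 2 the shares were 76.5 and 79.0%. Within slide 6 the shares were 89.4 and 85.2%, and within slide 8 they were 25.4 and 36.9%, so slide 8 ran the other way and a general blunting did not hold within slides. The normexp fit, also used for the other normexp values in the text, had a raised 5th percentile of signal on GD5.5 GEN 1, 2 and 3 (319, 540 and 249). On the other arrays of the 4 groups it was 62 to 66. In that fit 21.9% of the risen genes had moved less far in GEN. Fitted without spots of high local background, the share was 58.3%. These shares carry no test.

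The decidual genes were lower in median difference, without any passing. The decidualization list had 24 genes tested, of which 17 had a negative difference, with a median of -0.43; over all genes tested the median was 0.04 and 44.4% were negative. Of the 24, 13 rose in GEN and 15 in CON (11.9% and 15.7% of all genes did), and the median change was 0.72 in GEN and 1.49 in CON. Within slide 6 the list's median was -1.39 and within slide 8 it was 0.19. It was -0.27 without GD4.5 GEN 1, -0.66 without GD4.5 GEN 4, -0.65 with slide as a fixed term and -1.08 with array weights.

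Bmp2, the morphogen that stroma needs to decidualize, stood at 1.61, 0.81, -0.32 and 1.61 in GD5.5 GEN, 1.85, 1.64, 1.20 and 1.31 in GD5.5 CON, -1.48, -0.42, -3.88 and -3.22 in GD4.5 GEN, and -3.37, -1.74, -3.13 and -2.96 in GD4.5 CON. Exposures overlapped on both days, with GD5.5 GEN 3 low and GD4.5 GEN 2 high. It rose in both, by 3.18 (SE 0.54) in GEN and 4.30 (SE 0.54) in CON, and the difference of -1.12 had a 95% interval of -2.69 to 0.45. Wnt4, a ligand downstream of BMP2 in stroma, rose by 2.93 in GEN and 3.95 in CON, with a difference of -1.02 (interval -2.34 to 0.30). Hand2, a progesterone-induced stromal factor, rose by 1.35 in GEN and 1.90 in CON (difference -0.55, interval -1.46 to 0.35), and Alpl, an alkaline phosphatase that marks decidua, by 2.51 and 3.71 (difference -1.20, interval -2.63 to 0.23). These differences varied by slide and array. Within slide 6 they were -3.55 for Bmp2, -2.71 for Wnt4, -1.90 for Hand2 and -3.52 for Alpl, and within slide 8 they were 1.22 for Bmp2, 0.09 for Wnt4, 0.10 for Hand2 and 0.82 for Alpl. Without GD4.5 GEN 2 they were -0.51 for Bmp2, -0.63 for Wnt4 and -0.29 for Hand2, and without GD5.5 GEN 3 they were -0.71 for Bmp2 and -0.30 for Hand2. Of the other genes chosen for implantation, Cebpb, a stromal transcription factor, rose by 0.85 in GEN and 1.13 in CON (difference -0.28, SE 0.38), and Hoxa10 and Hbegf, an EGF-family ligand, rose in CON by 0.34 and 0.93 with GEN changes of 0.0013 and 0.68 that did not pass. Ptgs2, which makes prostaglandins, Areg, an EGF-family ligand of receptive epithelium, and Cyp26a1, which breaks down retinoic acid, passed in neither exposure, and their differences were -2.19 (SE 1.12), 1.40 (SE 1.65) and 0.37 (SE 0.94). The sign turned for Areg with array weights (-0.28) and for Cyp26a1 with slide as a fixed term (-0.22).

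Prl8a2, a prolactin-family hormone of decidua, stood at 3.15, 1.58, -1.02 and 4.37 in GD5.5 GEN, 3.90, 3.98, 3.92 and 1.98 in GD5.5 CON, -3.59, -2.20, -7.95 and -7.76 in GD4.5 GEN, and -5.73, -3.91, -6.41 and -6.18 in GD4.5 CON. GEN arrays spanned more than CON arrays on both days. It rose by 7.40 (SE 1.04) in GEN and 9.0 (SE 1.04) in CON, with a difference of -1.60 (SE 1.48, adjusted p = 0.834). That value was -6.61 within slide 6 and 4.17 within slide 8. It was -0.55 without GD4.5 GEN 2, -0.59 without GD5.5 GEN 3, -1.01 without GD4.5 GEN 1 and -2.46 without GD4.5 GEN 3.

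Prl3c1, another hormone of this family, stood at 1.74, 1.29, -4.16 and 3.33 in GD5.5 GEN, against 2.36, 2.93, 2.37 and 1.32 in GD5.5 CON. At GD4.5 it stood at -4.05, -2.68, -7.96 and -8.11 in GEN, above background on GEN 1 and 2 only, and was not well above background on any CON array. In CON it was at least 334-fold higher at GD5.5 than at GD4.5, a lower bound in which a dim array is given the lowest signal among probes above background. The fitted difference of -3.78 (SE 1.62, adjusted p = 0.626) did not pass. It was -7.55 within slide 6, 1.76 within slide 8 and -2.21 without GD5.5 GEN 3. Among 15 prolactin genes tested, 11 had a negative difference and 6 rose in each exposure, against 11.9% of all genes in GEN and 15.7% in CON. Their median difference was -1.0, and it was -2.48 within slide 6, 1.76 within slide 8 and 0.90 under normexp background correction. Without GD4.5 GEN 2, GD5.5 CON 2, GD5.5 GEN 2 or GD5.5 GEN 3 it lay between -0.62 and -0.37, and with no filter on dim probes it was -0.43.

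**Figure D4:**
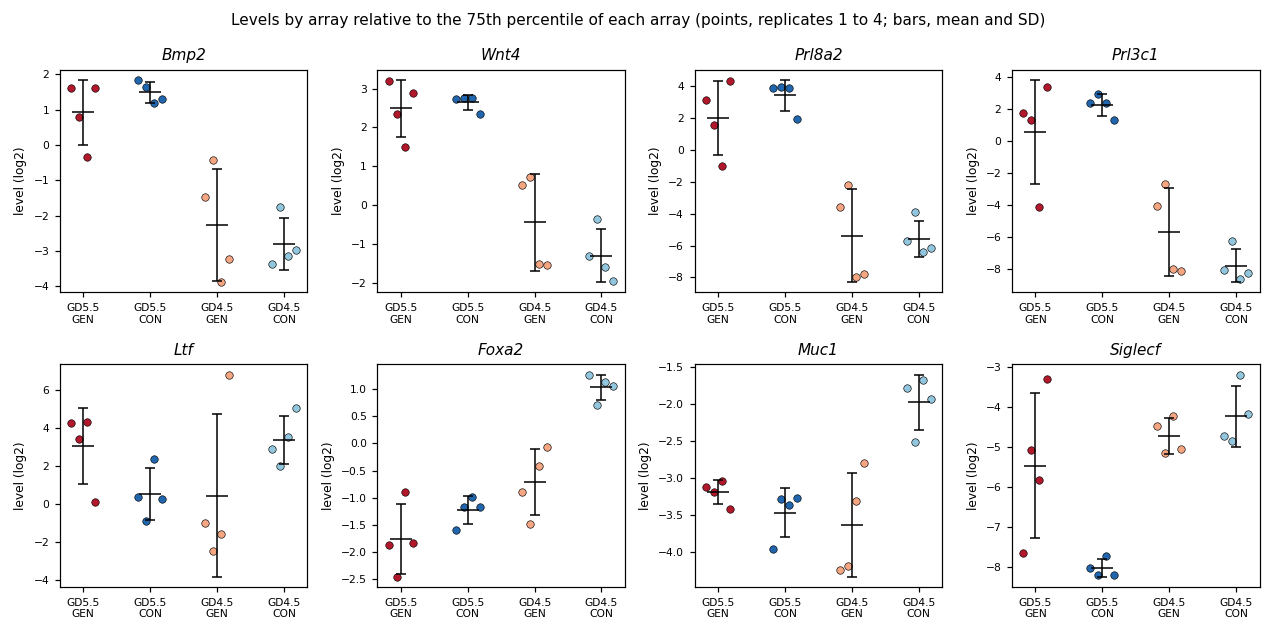
Log2 level by array (points) of the decidual genes Bmp2, Wnt4, Prl8a2 and Prl3c1 (top) and of Ltf, Foxa2, Muc1 and Siglecf (bottom) in GD5.5 GEN, GD5.5 CON, GD4.5 GEN and GD4.5 CON uteri, with mean and SD, n = 4 a group. In the top row GD5.5 GEN 3 is the lowest GD5.5 array for each gene, and GD4.5 GEN 1 and 2 lie above the other GEN arrays of that day.

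Markers of the conceptus were split. Of 16 listed trophoblast and embryo genes, 9 to 11 were above background in GD5.5 GEN and in GD5.5 CON and 9 to 12 in GD4.5 GEN and in GD4.5 CON, while Hand1, Nanog and Sox2 were above it on 0 of 16 arrays and Cdx2 on 1. Their summed linear level, in units of the array's 75th percentile, was 2.23 to 9.42 in GD5.5 GEN, 6.55 to 10.4 in GD5.5 CON, 1.52 to 2.28 in GD4.5 GEN and 1.22 to 1.78 in GD4.5 CON, lowest at GD5.5 in GEN 3. Among the 12 tested, 7 had a negative difference, with a median of -0.33 that was -0.46 within slide 6, 0.95 within slide 8, 1.04 under normexp and 0.09 with no filter on dim probes. Leaving out single arrays moved it between -0.54 (without GD4.5 GEN 4) and -0.05 (without GD4.5 GEN 2). Gata3, a transcription factor of trophoblast, rose by 1.95 in GEN and 3.53 in CON (difference -1.58, SE 0.39, adjusted p = 0.376), with -1.82 within slide 6 and 0.55 within slide 8. Elf5, a transcription factor of trophoblast stem cells and of some epithelia, fell by 1.54 in CON with a GEN change of 0.13 that did not pass (difference 1.67, SE 0.68, adjusted p = 0.618), and was positive on both slides, at 2.43 and 1.09. The part of such tissue in the differences was not tested, and in whole uteri fewer cells of a type and less RNA per cell cannot be told apart.

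The BMP and activin list, with 27 genes tested, was split, with 14 negative differences and a median of -0.11, which was 0.04 without GD4.5 GEN 4. The median change itself was higher in GEN (0.42) than in CON (0.18). Bmp8a, a ligand, rose by 4.01 in GEN and 5.78 in CON (difference -1.77, SE 0.71, and -1.13 without GD5.5 GEN 3). The cell cycle list had 20 of 26 negative differences and a median of -0.14. Of its genes, 13 rose in GEN and 24 in CON (11.9% and 15.7% of all genes did). Within slide 6 all 26 differences were negative (median -1.42), and within slide 8 only 3 were (median 0.26). Slide as a fixed term gave -0.45 and array weights -0.62, and leaving out single arrays moved this median between -0.55 (without GD4.5 GEN 4) and 0.14 (without GD4.5 GEN 2). Rrm2, a ribonucleotide reductase subunit, had the largest of these (-1.38, SE 0.88, and -0.76 without GD4.5 GEN 2), with rises of 2.75 in GEN and 4.14 in CON. Aoc1, an amine oxidase that breaks down histamine and polyamines, rose by 4.29 in GEN and 7.55 in CON (difference -3.26, SE 1.37, adjusted p = 0.624).

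Chaperones of the endoplasmic reticulum fold secreted proteins. The list of them also held genes that are not chaperones, such as Xbp1, Atf4, Ddit3, Herpud1 and Sel1l. Of its 19 genes tested, 18 had a negative difference, with a median of -0.30. In CON 14 rose and 0 fell, and in GEN 2 (Hsp90b1 and Pdia6) rose and 3 fell. Of all genes tested, 15.7% rose and 13.8% fell in CON, and 11.9% rose and 8.14% fell in GEN. Hspa5, the main chaperone of the compartment, had changes of 0.22 in GEN, which did not pass, and 0.70 in CON, a rise. Hyou1, a stress-induced chaperone, was at 0.06 in GEN and rose by 0.94 in CON (difference -0.88, SE 0.35, adjusted p = 0.618), but a second, dimmer probe gave 1.43. Dnajb9, a co-chaperone, fell in GEN by 0.70 with a CON change of -0.14 that did not pass (difference -0.56, SE 0.15, adjusted p = 0.461), and both of its other probes also gave negative differences. Without GD4.5 CON 2 the list's median was -0.46, and without GD4.5 GEN 1 it was -0.22. It was negative on both slides, at -0.92 within slide 6 and -0.17 within slide 8, against -0.08 and 0.14 for all genes.

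Of 22 genes of angiogenesis and endothelium, 18 had a negative difference, with a median of -0.21 (-0.45 within slide 6, -0.10 within slide 8). In CON 10 rose and 1 fell (15.7% and 13.8% of all genes did), and in GEN 4 rose and 4 fell (11.9% and 8.14%). Angpt2, a ligand that loosens vessel walls, rose by 0.78 in GEN and 1.75 in CON (difference -0.97, SE 0.28, adjusted p = 0.484). Esm1, secreted by endothelial tip cells, rose by 2.03 in CON and had a GEN change of 0.75 that did not pass (difference -1.28, SE 0.44). The VEGF receptors Flt1 and Kdr rose in CON by 0.53 each, with GEN changes of -0.09 and -0.03, while Vegfa rose in both, by 0.52 in GEN and 0.89 in CON.

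The lists of glands, epithelium, mast cells and eosinophils, MHC class II, and macrophages and dendritic cells had positive median differences without any gene passing. Of 8 gland genes tested, 0 had a negative difference and the median was 1.19, and 0.27 within slide 6 and 1.01 within slide 8. The positive difference did not mean higher gland levels in GEN. The list's median GEN minus CON was -0.70 at GD5.5 and -1.93 at GD4.5, so GEN was lower on both days and less so at GD5.5. The summed linear level of the gland list was lower in every GEN array than in every CON array of the same day. At GD5.5 that sum came mostly from the bright gland proteinases Prss28 and Prss29. The list's median deviation per array overlapped at GD5.5, where GEN 3 (-0.24) was above CON 1 and CON 3 (both -0.34). At GD4.5 it was -0.75 to 0.11 in GEN and 1.27 to 1.48 in CON. These list values carry no test. Foxa2, the transcription factor of uterine glands, stood at -1.87, -2.47, -0.89 and -1.84 in GD5.5 GEN, -1.59, -1.17, -0.99 and -1.18 in GD5.5 CON, -0.89, -1.49, -0.42 and -0.07 in GD4.5 GEN, and 1.26, 0.72, 1.13 and 1.05 in GD4.5 CON. The exposures overlapped at GD5.5, and at GD4.5 every GEN array was below every CON array. It fell by 2.27 in CON and its GEN change of -1.05 did not pass (difference 1.22, SE 0.54, adjusted p = 0.633). Sox17, another gland factor, fell in both, by 1.12 in GEN and 1.66 in CON, and the gland proteinase Prss29 had changes of 3.32 in GEN and 1.19 in CON that did not pass.

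Among 20 estrogen-phase epithelial genes, 14 had a positive difference, with a median of 0.66 (0.63 within slide 6, 0.49 within slide 8). It was 0.20 without GD5.5 GEN 3 and 0.29 to 0.42 without GD4.5 GEN 1, 2 or 3. Ltf, lactoferrin, secreted by epithelium under estrogen, stood at 4.29, 3.43, 4.33 and 0.09 in GD5.5 GEN, 0.37, -0.90, 2.35 and 0.24 in GD5.5 CON, -1.0, -2.47, -1.58 and 6.82 in GD4.5 GEN, and 2.89, 2.02, 3.54 and 5.05 in GD4.5 CON. GD4.5 GEN 4 lay above all CON arrays and the other GEN arrays of the day below them. The difference of 5.45 (SE 1.91) did not pass (adjusted p = 0.553); without GD4.5 GEN 4 it was 7.57 and passed (adjusted p = 0.0298). Muc1, a mucin of the epithelial surface, fell by 1.49 in CON with a GEN change of 0.44 that did not pass (difference 1.93, SE 0.53, adjusted p = 0.472).

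The receptive-phase list had 9 of 12 positive differences and a median of 0.76 (0.88 within slide 6, -0.75 within slide 8), and of 0.43 to 0.48 without GD4.5 GEN 2, GD4.5 GEN 4 or GD5.5 GEN 3. Its genes Alox15, a lipoxygenase, and Acod1, which makes itaconate, fell in both exposures, by 3.06 in GEN and 4.73 in CON for Alox15 and by 2.15 and 3.90 for Acod1. Ihh, the epithelial hedgehog ligand induced by progesterone, fell by 1.80 in CON, with a GEN change of -0.51 that did not pass (difference 1.29, SE 0.75, and 0.78 without GD4.5 GEN 4). The simple epithelium list had 12 of 14 positive differences and a median of 0.53, but 1.78 within slide 6 and -0.62 within slide 8, and 0.13 to 0.89 when single arrays were left out (lowest without GD4.5 GEN 2, highest without GD4.5 GEN 4).

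Mast cell and eosinophil genes had the highest median difference of the 35 lists, 1.26, with 11 of 13 positive (2.09 within slide 6, 0.59 within slide 8). Their summed level was 1.42 to 3.20 in GD5.5 GEN, 1.20 to 2.83 in GD5.5 CON, 1.08 to 4.24 in GD4.5 GEN and 3.43 to 10.5 in GD4.5 CON. The CON groups did not overlap in this sum and the GEN groups did. Siglecf, a lectin of eosinophils, was not well above background on any GD5.5 CON array and was so on 2 GD5.5 GEN arrays; it was at least 3.53-fold lower at GD5.5 than at GD4.5 in CON. Cpa3, Cma1 and Mcpt4, proteinases of mast cell granules, fell by 2.25, 2.16 and 2.17 in CON, with GEN changes of 0.02, -0.07 and 0.0025 that did not pass. The difference of Cpa3 was 3.07 within slide 6 but -0.83 within slide 8. Of the 13 listed genes, 3 were negative within slide 6 and 4 within slide 8.

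MHC class II genes, expressed by antigen-presenting cells, had 7 of 8 positive differences and a median of 1.20 (1.02 within slide 6, 2.78 within slide 8). Cd74, the invariant chain, fell by 2.37 in CON, with a GEN change of -1.04 that did not pass. Macrophage and dendritic cell genes had 11 of 12 positive differences (median 0.68; 0.31 within slide 6, 1.29 within slide 8), and interferon response genes 14 of 16 (median 0.54; -0.42 within slide 6, 1.26 within slide 8). Retnlg, a secreted protein of neutrophils, fell by 4.31 in CON with a GEN change of -1.18 that did not pass (difference 3.13, SE 0.76, adjusted p = 0.376).

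**Figure D5:**
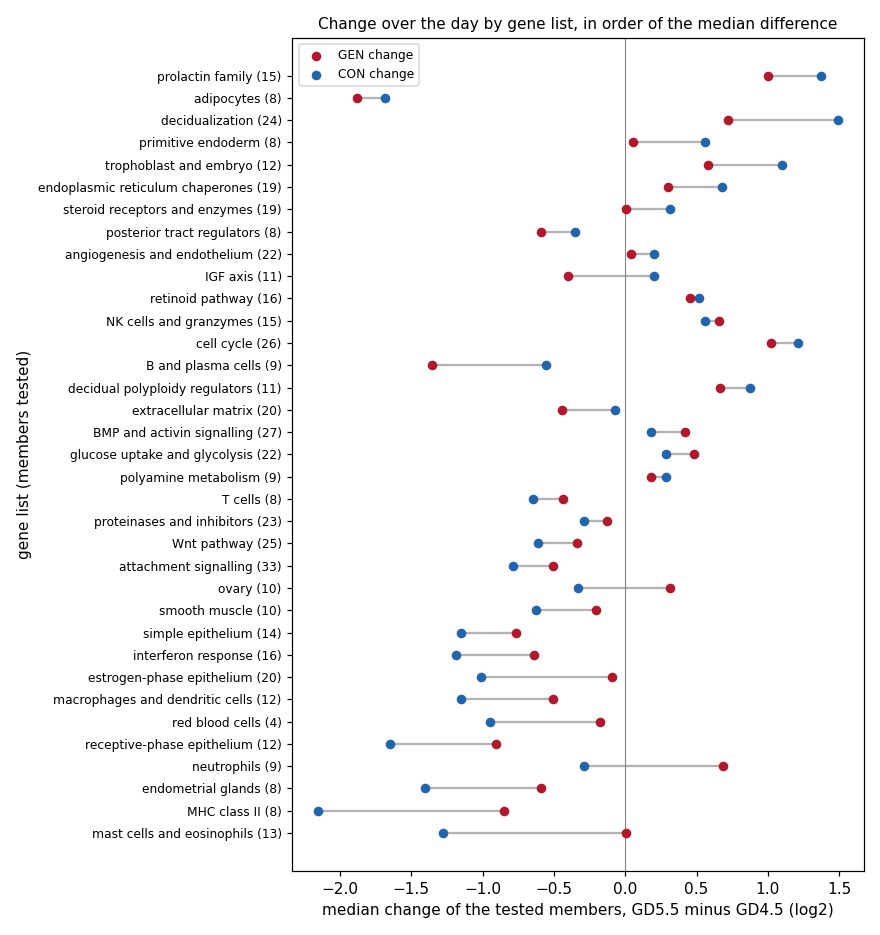
Median change over the day (GD5.5 minus GD4.5, log2) of the tested members of 35 gene lists, in GEN and CON uteri, with lists ordered by the median difference, lowest at the top. The prolactin and decidualization medians are higher in CON, and those of glands, MHC class II, and mast cells and eosinophils are lower in CON.

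Other tissue also varied among the arrays. Adipocyte genes had a summed level of 139 in GD4.5 GEN 2 and of 1.91 to 25.3 in the other arrays of the 4 groups, and a median difference of -0.77 that was 0.89 without GD4.5 GEN 2, 0.23 without GD4.5 CON 4, 0.34 without GD5.5 CON 3, 0.24 under normexp background correction and -4.18 within slide 6. Lep, the adipocyte hormone, was above background on 3 of 16 arrays, and the luteal receptor Lhcgr of the ovary on 0. GD4.5 GEN 2 was also the highest GD4.5 array in the risen genes, and the part of adipose tissue in the differences was not tested.

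Leaving out an array changed the count of calls most for GD5.5 GEN 4. Without it, 65 genes passed, 47 lower and 18 higher, of which 38 were blunted and 24 reversed. They included Cyp2s1 (-1.42, adjusted p = 0.01), Gata3 (-1.87, adjusted p = 0.0254), Nid2 (-1.29, adjusted p = 0.01) and Fech (1.16, adjusted p = 0.01). Without each of the other arrays in turn 1 to 3 genes passed, always with Banp among them.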

How the data were processed

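RNA of 29 uterine samples was hybridised to Agilent arrays in one colour (Cy3). Each deposited scanner file holds, per the file headers, a background-subtracted intensity per spot that was not normalized between arrays, made with Feature Extraction (version 9.5, per the submitters' processing notes). The authors also deposited a value matrix with the same intensities (differing by at most 0%), and 0 of its sample columns were unused. For this report the values were log2-transformed and scaled within each array to the 75th percentile of its 43379 non-control spots. Spots with outlier marks were treated as missing, and repeats of a probe were averaged. Probes took RefSeq names by accession (22944 probes), symbol (6664) or synonym (3108); the other 8458 kept the name in the file, which can be old. A gene with several probes was represented by its brightest.

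Means of the 8 groups were fitted to all 29 arrays with limma 3.58.1 (R 4.3.3, statmod 1.5.0, data.table version 1.17.8; two-sided). P-values were adjusted by Benjamini-Hochberg over 22549 genes, those well above background on 3 or more of the 16 arrays, and an adjusted p under 0.05 was a call. The fit was tested on simulated data. The number of arrays limits the precision.

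The comparison, the 18 key genes (17 tested) and the 35 lists (526 genes, 503 tested) were chosen with earlier results of these data known, so no list was tested. The rule named called genes that had a symbol and a probe above background in every group (14 each way), up to 4 each way that lacked this, all key genes, and per list up to 4 called members or, with none called, the 2 with the largest differences. With under 10 genes called, the 8 of smallest unadjusted p each way were added. Of the genes so named, 2 are not reported here. Further list members were picked as examples with their values known.

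Other background correction (normexp, offset 50), other scaling (quantile, median), other filters on dim probes, averaging a gene's probes, slide as a block (fixed, random), a replicate block, a fit of the 16 arrays alone, array weights, a variance trend with robust fit, a 2-fold threshold and leaving out each array were tried. Normexp without spots whose local background exceeded 200 was added after the data were seen.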

Additional observations from a re-analysis of the deposited data

Results flagged for a closer look

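Banp was singled out because the GEN effect differed between the days by the test of the difference itself, at -1.08 on the log2 scale.

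Of 388 sets of 4 samples (97 named genes in 4 groups), 30 (7.73%) held an array far from the other 3 by Dixon's criterion, where chance gives about 1 in 20. Values are log2 levels. In GD5.5 GEN, array 1 stood apart in H2-DMb1 (-4.56) and Elf5 (-3.37), array 3 in Anxa8 (0.72), Cdc6 (-0.90) and Myocd (0.61), and array 4 in Retn (-3.44). In GD5.5 CON, array 1 stood apart in Muc1 (-3.96) and array 2 in Klhl5 (-0.44). Array 3 of that group stood apart in H2-Eb1 (0.49), Alas2 (2.5), Hba-a1 (6.83) and Fabp4 (2.98), and array 4 in Wnt4 (2.35), Prl8a2 (1.98) and Hkdc1 (-1.88). In GD4.5 GEN, array 3 stood apart in Angpt2 (1.03) and array 4 in Ltf (6.82), Ptgs2 (-0.68), Adgre1 (3.28), H2-DMb1 (3.06), Elf5 (-3.18) and Igf2 (1.10). In GD4.5 CON, array 1 stood apart in Gzmf (-1.16), array 2 in Fech (0.90), Mex3d (-3.30), Bmp8a (-3.72) and Myocd (-0.30), array 3 in Usp25 (0.42) and H2-DMb1 (-3.90), and array 4 in Adgre1 (3.66). GD4.5 GEN 4, with 6 of the 30, held the most.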

How the results depend on the processing

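Banp kept its direction under all 30 alternatives (-1.23 to -0.96, adjusted p 0.00211 to 0.329) and lost its call under 3 of them. The count was 1 gene (0 higher, 1 lower; 1 reversed, 0 blunted). No gene passed in limma with median scaling (1787 genes at an unadjusted p under 0.05), slide as a fixed block (1937) or only the 16 arrays (1038), so called, lower and reversed were each 0. Quantile scaling gave 4 genes (1 higher, 3 lower; 4 reversed), and slide as a random block 2 (1 higher; 2 reversed). Both the filter to probes above background on all 16 arrays and the variance trend with robust fit gave 3 (1 higher, 2 lower; 1 blunted, 2 reversed). Array weights, whose estimation stopped before it converged, gave 29 (18 higher, 11 lower; 14 blunted, 12 reversed, 3 changed in GEN only). Leaving out single arrays gave 1 to 65 called, 0 to 18 higher, 1 to 47 lower, 0 to 38 blunted, 1 to 24 reversed and 0 to 3 changed in GEN only.

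Replicate numbers were not taken to pair the samples, and the sample titles do not say whether they do. In their deviations, same-numbered samples of different groups correlated at -0.29 to 0.52, with 10 of 24 pairs over 0.1. The mean was 0.11, against -0.04 for other pairs and 0.21 for pairs on the same slide. These values do not settle whether the numbers pair samples. The replicate block gave 3 genes (1 higher, 2 lower; 1 blunted, 2 reversed), namely Banp, Cyp2s1 and Fech.

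Normexp gave 61 genes (54 higher, 7 lower; 3 blunted, 17 reversed, 41 changed in GEN only) and moved the median difference of all genes to 0.45, against 0.04. It turned the sign of Alk (1.13), Ms4a1 (1.18), Blk (1.07), Afp (0.73), Cubn (0.82), Retn (0.064), Crabp1 (0.14), Dkk1 (0.98) and Pitx1 (1.29), and the share of risen genes that moved less far in GEN was 21.9%. The 5th percentile of the normexp-corrected signal was 319, 540 and 249 on GD5.5 GEN 1, 2 and 3 and 62 to 66 on the other 13 arrays. Fitted without spots of high local background, chosen after the data were seen, normexp gave 2 genes, of which 1 was higher and 2 were reversed. In that fit the 5th percentile was 66, 65 and 64 on GD5.5 GEN 1, 2 and 3. The median difference of all genes was 0.04, and 58.3% of the risen genes had moved less far in GEN. Other turned signs were Hyou1 with the mean of probes (0.28), Cyp26a1 with slide as a fixed block (-0.22), and Areg (-0.28), Prss28 (-0.82) and S100a9 (-0.073) with array weights. Cd8a ranged from -0.56 to 1.24 when single arrays were left out. The cause of these shifts was not tested. With 4 arrays a group, the median standard error of 0.33 limits what could pass, and probes near background carry little information.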

Other observations

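Cell types and pathways not described above also held 0 genes past the test of the difference. Of 9 neutrophil genes tested, 8 had a positive difference, with a median of 0.90 (-0.31 within slide 6, 2.59 within slide 8) that was 0.47 without GD4.5 GEN 3 and 0.23 with array weights. Smooth muscle genes had 9 of 10 positive and a median of 0.39 (0.79 within slide 6, -0.61 within slide 8), and 0.16 without GD5.5 GEN 3; Smtn, smoothelin of contractile muscle, fell by 0.81 in CON with a GEN change of -0.24 that did not pass. Natural killer cell and granzyme genes had 8 of 15 negative and a median of -0.14, with a median change of 0.66 in GEN and 0.56 in CON. That median difference turned to 0.07 without GD4.5 GEN 2 or GD5.5 GEN 4 and 0.04 without GD4.5 GEN 3. Gzmf, a granzyme of uterine natural killer cells, rose in both exposures, by 3.10 in GEN and 4.83 in CON (difference -1.73, SE 1.49). The red blood cell genes Alas2 and Hba-a1 had differences of 0.87 (SE 0.81) and 0.79 (SE 0.71). Cd3e of T cells had a difference of 0.97 (SE 0.49).

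Glucose genes were split, with 8 of 22 negative and a median of 0.03 that ranged from -0.09 (without GD4.5 GEN 4) to 0.17 (without GD4.5 GEN 2). Slc2a1, the main glucose transporter of decidua, rose by 1.95 in GEN and 2.99 in CON (difference -1.04, SE 0.38, adjusted p = 0.565). Hkdc1, a hexokinase-domain protein, rose by 1.32 in GEN with a CON change of -0.42 that did not pass (difference 1.73, SE 0.56, adjusted p = 0.504). Its level was nonetheless lower in every GEN array than in every CON array on both days. At GD4.5 it was -6.31 to -4.99 in GEN and -2.56 to -1.43 in CON. At GD5.5 it was -4.86 to -3.23 in GEN and -2.77 to -1.88 in CON. In the retinoid pathway, 10 of 16 were negative, with a median of -0.14 (-0.23 within slide 6, 0.19 within slide 8). It was -0.29 without GD4.5 CON 2 and -0.10 without GD5.5 CON 3. Cyp26b1, which breaks down retinoic acid, rose by 2.63 in CON with a GEN change of 1.11 that did not pass (difference -1.52, SE 0.64). Among 25 Wnt genes the median was 0.17, and -0.01 without GD4.5 CON 2. Sfrp5, a secreted Wnt inhibitor, rose by 4.04 in GEN and 5.36 in CON (difference -1.32, SE 0.86). Dkk1, another, was above background on 0 GD4.5 arrays, and was at least 4.96-fold higher at GD5.5 than at GD4.5 in CON. In GEN the same calculation gave 2.00-fold, but only 3 GD5.5 GEN arrays were above background, so it is not a firm lower bound.

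E2f7, a factor of polyploid cell cycles, rose by 1.61 in GEN and 2.59 in CON, and Ccnd2, a cyclin, fell by 0.92 in GEN and 1.58 in CON. Lama1, a laminin chain, rose by 1.72 in GEN and 2.71 in CON. Tnc, tenascin C, fell by 0.92 in GEN, with a CON change of -0.14 that did not pass. Mmp7, a matrix metalloproteinase of epithelium, rose by 2.93 in CON with a GEN change of 0.15 that did not pass (difference -2.78, SE 1.19). Sprr2f, an estrogen-responsive epithelial gene, and Cldn4, a tight junction claudin, fell in CON by 3.48 and 1.81, with GEN changes of -0.07 and -0.40 that did not pass.

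The median differences of the remaining lists depended on single arrays. The sign turned for 6 of them. The B cell median of -0.14 was 0.55 without GD4.5 CON 2 and -0.44 without GD4.5 CON 4, and the T cell median of 0.15 was 0.60 without GD4.5 GEN 4 and -0.17 without GD4.5 CON 4. The posterior tract median of -0.22 was 0.12 without GD5.5 GEN 1 and -0.55 without GD5.5 GEN 3, and the polyamine median of 0.07 was -0.12 without GD4.5 GEN 4 and 0.21 without GD4.5 GEN 1. The insulin-like growth factor median of -0.20 was 0.01 without GD4.5 GEN 3 and -0.35 without GD4.5 CON 2. Polyploidy regulators, at -0.12, were at -0.24 without GD4.5 GEN 4 and at 0.0087 without GD4.5 GEN 2. The red blood cell median of 0.75 was 0.32 without GD4.5 CON 1 and 1.29 without GD5.5 CON 3, and the ovary median of 0.33 was 0.13 without GD4.5 CON 4. Primitive endoderm, at -0.40, was at -0.14 without GD5.5 GEN 1, and steroid receptors and enzymes, at -0.22, at -0.02 without GD4.5 GEN 3. Attachment signalling, at 0.31, was at 0.15 without GD4.5 GEN 2, extracellular matrix, at -0.12, at -0.04 without GD5.5 GEN 1, and proteinases, at 0.16, at 0.25 without GD5.5 GEN 4.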
